A study of Mus musculus with 40 samples.

Results

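The acetylation of lysine 27 on histone H3 (H3K27ac), a mark of active promoters and enhancers, was compared between day 3 and day 6 of adipocyte differentiation in wild-type (WT) cells. The 6 libraries were 3 of WT day 3 and 3 of WT day 6, out of 24 libraries with peak lists in the series. Peaks of the 6 lists that overlapped by 1 bp or more were merged into 141221 regions. A region was taken as gained when 3 of 3 day 6 libraries and 0 of 3 day 3 libraries held a peak in it, as lost in the reverse case and as kept when 6 of 6 held one. This gave 6301 gained regions (4.46% of all merged regions), 1150 lost regions (0.814%) and 36752 kept regions (26.0%). The other 97018 regions fell in none of the classes. Each region was assigned to the protein-coding gene with the nearest start, and its nearest gene is a neighbour, not a shown target.

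The cells were preadipocytes from the inguinal white adipose tissue of young adult C57BL/6 WT mice, grown to confluence and induced with insulin, dexamethasone, IBMX, T3 and rosiglitazone for 4 days, then kept in insulin and T3. The day 3 cells were therefore in differentiation medium and the day 6 cells in maintenance medium, so day and medium cannot be told apart. Libraries of cells lacking HMGN1 and HMGN2 (double knockout, DKO), cultured in the same way, and WT libraries of day 0 and day 9 were used to follow the regions outside the samples that chose them. HMGN1 and HMGN2 are proteins that bind nucleosomes. Hmgn2 had no peak over it in any of the 12 DKO libraries and 1.40 to 1.80 kb under peaks in the 6 WT libraries compared, while Hmgn1 kept 0.875 to 3.57 kb in DKO libraries. The study calls the libraries of a day biological replicates. Whether they came from separate mice or cultures is not given in the sources used here, so p-values measure the spread between these samples. The numbering in the peak names restarts at each day, and day cannot be told apart from whatever that numbering stands for.

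Preadipocytes become adipocytes in steps. Glucocorticoid and cAMP signals in the first medium induce C/EBPβ and C/EBPδ, which prepare the expression of PPARγ and C/EBPα, and these factors then switch on the genes of lipid droplets, lipid uptake and adipokines. PPARγ is the receptor of rosiglitazone. PRDM16, PGC-1α and UCP1 belong to the thermogenic programme of brown and beige adipocytes. H3K27ac marks the promoters and enhancers that are in use, and its length over a gene is used here as the measure of that gene.

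The strongest gained and lost regions show what the classes hold. They were ranked by the median −log10 q of the libraries that called them, and the values chose them, so they are a description. The strongest gained region, chr2:30380798-30385720, lay within 1 kb of a transcript start of Miga2, with Dolpp1 the gene with the nearest gene start, and had fold enrichments of 14.8, 14.7 and 16.9 in the 3 day 6 libraries. The second, chr5:124226770-124227943, lay in an intron of Pitpnm2, with 14.5, 11.4 and 11.9. The third, chr10:75935877-75936666, lay within 1 kb of transcript starts of Mmp11 and Chchd10 (13.8, 8.94 and 13.5). The fourth, chr5:51825816-51826392, was intergenic and 258 kb from the start of Ppargc1a, which encodes PGC-1α (12.7, 11.4 and 10.4). The fifth, chr6:113433133-113435874, covered a start of Cidec, a lipid droplet protein (11.8, 12.9 and 13.4). All 5 were called in 3 of 3 DKO day 6, WT day 9 and DKO day 9 libraries, and 3 of them in no day 0 and no DKO day 3 library.

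Below are the 201 bases around the summit in 4 of these regions, from the RefSeq sequence of GRCm38 on the plus strand, with matches to the 11 motifs searched in capitals. The region at Chchd10 is left out because its summit lies on an exon.
Miga2 (chr2:30381227-30381427): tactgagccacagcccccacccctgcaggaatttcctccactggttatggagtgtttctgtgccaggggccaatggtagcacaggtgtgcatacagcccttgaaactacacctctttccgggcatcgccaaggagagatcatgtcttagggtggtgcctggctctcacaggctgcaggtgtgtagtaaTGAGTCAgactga
Pitpnm2 (chr5:124226923-124227123): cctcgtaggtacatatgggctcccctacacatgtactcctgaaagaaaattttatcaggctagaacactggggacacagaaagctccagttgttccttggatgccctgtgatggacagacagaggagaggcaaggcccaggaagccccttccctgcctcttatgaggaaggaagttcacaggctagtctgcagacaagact
Ppargc1a, distal (chr5:51826117-51826317): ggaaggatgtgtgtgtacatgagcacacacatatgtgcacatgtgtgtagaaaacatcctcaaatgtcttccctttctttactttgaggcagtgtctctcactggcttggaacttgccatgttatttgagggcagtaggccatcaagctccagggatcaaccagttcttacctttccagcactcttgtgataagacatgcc
Cidec (chr6:113435238-113435438): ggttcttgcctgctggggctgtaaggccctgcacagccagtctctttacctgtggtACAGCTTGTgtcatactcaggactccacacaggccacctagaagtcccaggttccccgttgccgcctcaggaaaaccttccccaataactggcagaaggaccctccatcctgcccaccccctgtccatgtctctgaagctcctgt
The window at Miga2 held an AP-1 match and the one at Cidec a glucocorticoid receptor match, while the other 2 held none.

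The strongest lost regions were lower. The first, chr9:45246341-45246772, lay in an intron of BC049352 and nearest to the start of Il10ra, the interleukin 10 receptor of myeloid and lymphoid cells, with fold enrichments of 9.90, 8.64 and 10.9 at day 3. The second, chr11:119875957-119876760, lay in an intron of Rptor (9.50, 8.39 and 8.68) and was called in 0 of 3 libraries at WT day 0 and in 0 of 3 at WT day 9, so among the WT days it was called at day 3 only. DKO libraries called it in 3 of 3 at days 3, 6 and 9. The third, chr9:21525423-21526068, lay 0.491 kb from the start of AB124611 (8.32, 8.63 and 5.27). The fourth, chr2:118007797-118008106, was 104 kb from Thbs1 (8.35, 9.77 and 5.35), and the fifth, chr19:57358240-57358515, was 2.30 kb from Fam160b1 (11.8, 8.40 and 6.63). Except for the Rptor region, these regions were called in 3 of 3 WT day 0 libraries. The windows of the Il10ra and AB124611 regions are shown in the same way, and the first holds a TEAD match.
Il10ra (chr9:45246522-45246722): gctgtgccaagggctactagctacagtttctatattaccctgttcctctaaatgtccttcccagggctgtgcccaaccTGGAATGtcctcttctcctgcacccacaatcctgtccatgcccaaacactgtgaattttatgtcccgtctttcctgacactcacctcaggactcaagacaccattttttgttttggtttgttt
AB124611 (chr9:21525585-21525785): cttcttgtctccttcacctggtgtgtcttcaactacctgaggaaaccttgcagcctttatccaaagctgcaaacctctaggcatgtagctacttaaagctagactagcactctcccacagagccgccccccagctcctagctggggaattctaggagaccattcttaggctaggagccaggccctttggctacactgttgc

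The libraries differed in depth. The number of reads is not in the lists, but the background under the peaks, in reads per kb, ranks them. It was 10.4, 10.1 and 4.5 in day 3 replicates 1, 2 and 3, and 11.2, 9.82 and 11.1 at day 6. Day 3 replicate 3 was therefore the shallow library, and its highest fold enrichment was 159 against 53.4 to 60.2 in the other 5. Day 3 libraries held 91567, 95852 and 68629 peaks (85349 ± 14638, SD, n = 3) and day 6 libraries 102234, 98503 and 105511 (102083 ± 3506, SD, n = 3). The difference of 16733 peaks had a two-sided exact permutation p of 0.1, the smallest that 3 against 3 libraries allow, and was 8373 without the shallow library. The genome under peaks was 44.6 ± 11.8 Mb at day 3 and 57.5 ± 2.60 Mb at day 6 (SD, n = 3, exact permutation p = 0.1). The shared length of 2 libraries over their joint length (Jaccard index) averaged 0.590 within days and 0.510 between days, and the difference of 0.0798 had a one-sided exact permutation p of 0.1 over 10 ways to part the libraries. It averaged 0.634 over the day 6 pairs, and at day 3 it was 0.637 for replicates 1 and 2 but 0.511 and 0.491 for the pairs with the shallow replicate 3.

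**Figure D1:**
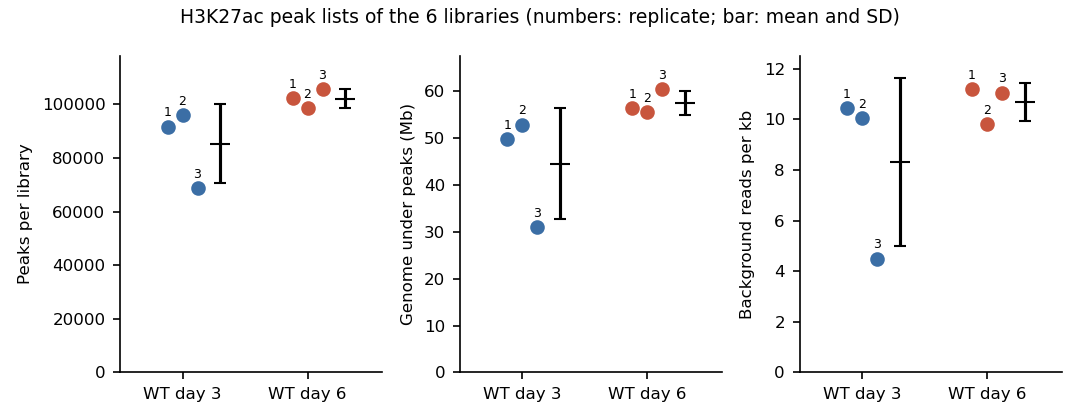
Peaks per library, genome under peaks (Mb) and background reads per kb in the 3 WT day 3 and 3 WT day 6 libraries, with replicate numbers and the mean and SD beside them. Day 3 replicate 3 lies below the other 5 libraries in each panel, with 68629 peaks and 4.5 background reads per kb.

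The balance of gained to lost regions rests on this library. With it, gained regions outnumbered lost ones by 5.48 to 1, and without it by 1.5 to 1, because lost regions went from 1150 to 4439 while gained regions went from 6301 to 6641. With the 20000 strongest peaks of each library, which sets all libraries to the same number, there were 780 gained and 377 lost regions. A further 8842 regions were called in 2 of 3 day 6 libraries and in 0 of 3 at day 3, 4818 in 3 of 3 at day 6 and in 1 of 3 at day 3, and 4189 in 2 of 3 at day 3 and 0 of 3 at day 6. These lie just outside the classes.

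Where the gained regions came from and went to was read in libraries that did not choose them. WT day 0 libraries called 16.2%, 19.9% and 17.8% of the gained regions (18.0% ± 1.87, SD, n = 3) and WT day 9 libraries 54.8%, 69.4% and 67.8% (64.0% ± 8.01, SD, n = 3). The difference of 46.0 percentage points had a two-sided exact permutation p of 0.1. In DKO cells, day 3 libraries called 5.24%, 12.8% and 6.70% of them (8.24% ± 4.01) and day 6 libraries 55.1%, 54.3% and 30.1% (46.5% ± 14.2), a difference of 38.2 points (exact permutation p = 0.1). The groups did not overlap in either comparison. Of the 6301 regions, 4504 were called in 0 of 3 WT day 0 libraries, and 1958 of these in 3 of 3 at day 9. Another 573 were called in 3 of 3 at day 0, so they were absent from the lists of day 3 between calls at day 0 and day 6.

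The lost regions showed the mirror image. WT day 0 libraries called 71.2% ± 3.24 of them and WT day 9 libraries 26.7% ± 5.56, which is 44.5 points fewer (second minus first, exact permutation p = 0.1, n = 3 and 3). DKO libraries called 60.3% ± 10.3 at day 3 and 15.1% ± 9.78 at day 6 (exact permutation p = 0.1, n = 3 and 3). Of the 1150 lost regions, 694 were called in 3 of 3 WT day 0 libraries, and 365 of these in 0 of 3 at WT day 9. A smaller set of 217 was called in 0 of 3 at WT day 0, and 119 of these were also called in 0 of 3 at WT day 9. Kept regions were called in 3 of 3 WT day 0 libraries in 30797 of 36752 cases and in 3 of 3 WT day 9 libraries in 33884. DKO day 0 replicate 2 stood apart by wide peaks (median 1076 bp) over 96.4 Mb. DKO day 6 replicate 3 held the fewest peaks of the 24 libraries (47448) and gave the lowest share of DKO day 6 in each class.

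**Figure D2:**
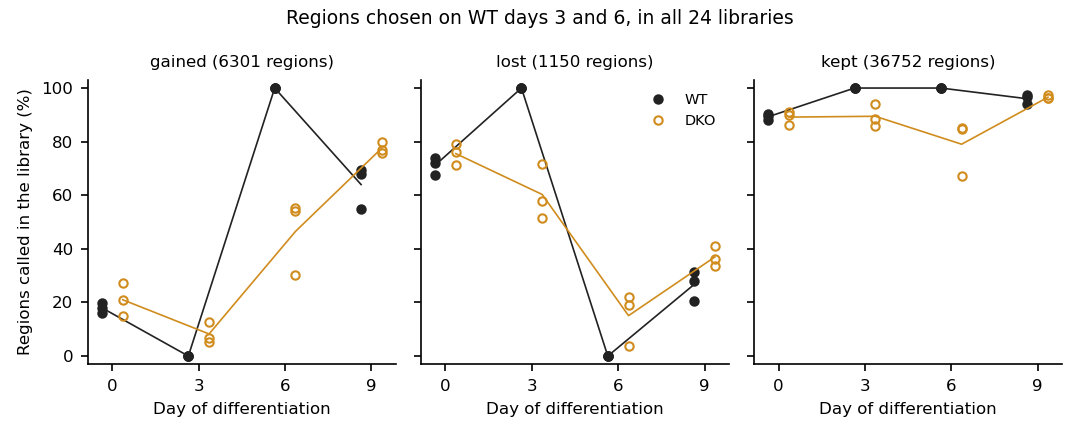
Percentage of the gained, lost and kept regions that each of the 24 libraries called, by day of differentiation; each point is a library and lines join the means of 3. The WT day 3 and day 6 values of 0% and 100% are set by the definition; among the other libraries, gained regions go from 18.0% at WT day 0 to 64.0% at WT day 9 and lost regions from 71.2% to 26.7%.

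Gained regions were mostly away from promoters, as were lost regions and those in no class. Of the peaks of a library, 33.5% ± 4.00 at day 3 and 29.5% ± 0.425 at day 6 had any base within 1 kb of a transcript start (SD, n = 3, two-sided exact permutation p = 0.1). The shallow library had the highest share, 38.1%. With the 20000 strongest peaks of each library, day 6 minus day 3 was +1.26 points, where all peaks gave -4.02. Among regions, 12.4% of the gained, 15.8% of the lost, 46.7% of the kept, 13.6% of those in no class and 22.2% of all had their summit within 1 kb of a transcript start. Regions were placed by the summit, so their shares cannot be read against those of the peaks. In introns lay 46.7% of the gained regions, against 41.2% of the lost, 26.6% of the kept, 46.0% of those in no class and 41.0% of all. Gained and lost regions had median widths of 493 and 452.5 bp, and kept regions 1098 bp. Their GC content within 100 bp of the summit was 46.8% in gained, 48.8% in lost and 52.2% in kept regions. A kept region lay within 5 kb of 42.6% of the gained and 39.9% of the lost regions, and of 54.0% of all merged regions. These shares describe the classes, and no test was made on them.

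The gained regions were spread over 3379 nearest genes, and 205 genes with 5 or more held 1340 of them (21.3%). Ebf1, a factor of the adipocyte lineage, had the most with 21, followed by E130114P18Rik with 15, which overlaps Nfia, and by Arl4a, Tigit and Bmper with 14 each. Ppargc1b, which encodes PGC-1β, had 13, Acsl1 12, Zbtb16 11 and Lpl 10. These are raw counts, and the number of regions near a gene differed widely. Ebf1 also had 47 kept regions and 214 in no class, E130114P18Rik 28 and 114, and Bmper 41 and 133. Tigit had 27 and 48, and Arl4a 3 and 21. The lost regions had 904 nearest genes. Nfatc2, a transcription factor of lymphoid and myeloid cells, had 7 of them, and Fli1, an ETS factor of blood and endothelial cells, and Arhgap25, a GTPase activator of blood cells, had 5 each. Of these 5 genes, Arl4a passed the test across genes described next, Ebf1, E130114P18Rik and Bmper did not, and Tigit had no peak over it at either day. The kb under peaks at Arl4a were 3.37, 2.74 and 1.65 kb at day 3 against 10.4, 9.71 and 11.4 kb at day 6. Nfatc2, Fli1 and Arhgap25 passed, but the call of Nfatc2 was lost without day 6 replicate 1 or 2 (adjusted p = 0.0588 and 0.0551 by limma) and that of Arhgap25 without day 3 replicate 1 or day 6 replicate 1 or 2 (0.0513 to 0.0718).

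For each protein-coding gene, the length covered by peaks, in kb, was added up over a window that starts 5 kb before the gene and stops at its end, and day 6 was compared with day 3 by limma on log2(kb + 0.5). Fold changes on this scale understate changes of low values. Genes were tested when their mean over the 6 libraries was 0.5 kb or more. Genes with no peak at day 3, such as Adipoq, Mlxipl, Aqp7, Adrb3 and Kcnk3 below, therefore entered through day 6 alone. Their equal day 3 values also add no spread to the test, and the list counts include such genes. Of 12416 genes tested, 1318 (10.6%) rose and 127 (1.02%) fell at an adjusted p under 0.05, and the libraries of the days did not overlap for 40.0% of genes in the upward and 2.04% in the downward direction. The log2 difference was above 0 in 10498 of the 12416 genes, and in 8653 of 12548 without the shallow library. It was above 0 in 5494 of 12416 when each library was centred on its median gene. The part of depth in this lean was not tested. The median log2 difference over all genes was 0.24. Centring each library on its median gene gave 1322 higher and 843 lower genes. Leaving out the shallow library as well gave 1534 higher (12.2%) and 1405 lower (11.2%) of 12548 genes, so the count of lower genes changed most with these settings. Genes that changed and genes with gained or lost regions come from the same peaks. A gained region was nearest to 2837 of the tested genes, of which 830 rose (29.3%), and a lost region to 737, of which 78 fell (10.6%).

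The 2 largest increases were at genes known from fat cells. Cidec had 0, 0 and 0.168 kb under peaks in the day 3 libraries and 5.98, 6.47 and 6.17 kb at day 6, a log2 difference of 3.61 ± 0.15 (SE, adjusted p = 2.56e-05 by limma). Adipoq, which encodes the adipokine adiponectin, had no peak at day 3 and 5.18, 5.04 and 5.50 kb at day 6 (3.52 ± 0.12, adjusted p = 8.02e-06). Neither gene had a peak in the 3 WT day 0 libraries, and both lay between 4.73 and 6.79 kb at WT day 9. In DKO cells both went from 0 to 0.254 kb at day 3 to 4.11 to 8.08 kb at day 6. The other members of the 10 largest increases were Lgals12 (log2 difference 3.34), a galectin of lipid droplets, Fhl1 (3.31), Fabp12 (3.27), a fatty acid binding protein, Gm20532 (3.27), which overlaps Agpat2 and Egfl7, Tmem266 (3.09), whose window overlaps that of Nrg4, Cd36 (3.09), the fatty acid transporter, Arhgef37 (3.03) and Klb (2.99), the co-receptor of FGF21. The 10 were taken from the called genes whose libraries did not overlap between days, so the lack of overlap is set by the choice. Without the shallow library and with centring, each still passed, with log2 differences of 2.45 (Arhgef37) to 3.60 (Cidec).

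Plin1, the perilipin that coats lipid droplets, shows how a gene filled in. It had 1.61, 1.47 and 0.629 kb at day 3 against 12.3, 11 and 11.95 kb at day 6 (log2 difference 2.87 ± 0.24, adjusted p = 0.000368). A kept region overlapped its promoter, and the fold enrichment there rose by a centred log2 difference of 1.63 ± 0.21 (SE, adjusted p = 7.03e-05 by limma). A gained region lay just upstream and overlapped the promoter as well. The 250 bases before the RefSeq start hold 2 C/EBP matches and an EBF match, in capitals. Of the starts of Cidec, 2 have a promoter that overlaps its strongest gained region. The one at the gene's start holds an EBF match, and the other, shown here, a C/EBP and an AP-1 match. Of 32851 RefSeq promoters of 300 bases, 10.8% held a C/EBP, 6.56% an EBF and 7.81% an AP-1 match, so a match is not rare. Both sequences are on the strand of the gene.
Plin1 (chr7:79732777-79733026, minus strand): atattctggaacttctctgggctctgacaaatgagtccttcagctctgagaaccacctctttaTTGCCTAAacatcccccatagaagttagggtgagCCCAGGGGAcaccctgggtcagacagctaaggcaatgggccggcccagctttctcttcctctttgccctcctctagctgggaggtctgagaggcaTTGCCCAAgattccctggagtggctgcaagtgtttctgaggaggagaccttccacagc
Cidec (chr6:113434765-113435014, minus strand): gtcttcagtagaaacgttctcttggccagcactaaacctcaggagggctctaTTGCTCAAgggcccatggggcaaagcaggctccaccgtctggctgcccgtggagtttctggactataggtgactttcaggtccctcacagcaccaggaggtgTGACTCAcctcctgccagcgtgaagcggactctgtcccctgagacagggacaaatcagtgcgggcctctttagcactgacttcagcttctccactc

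**Figure D3:**
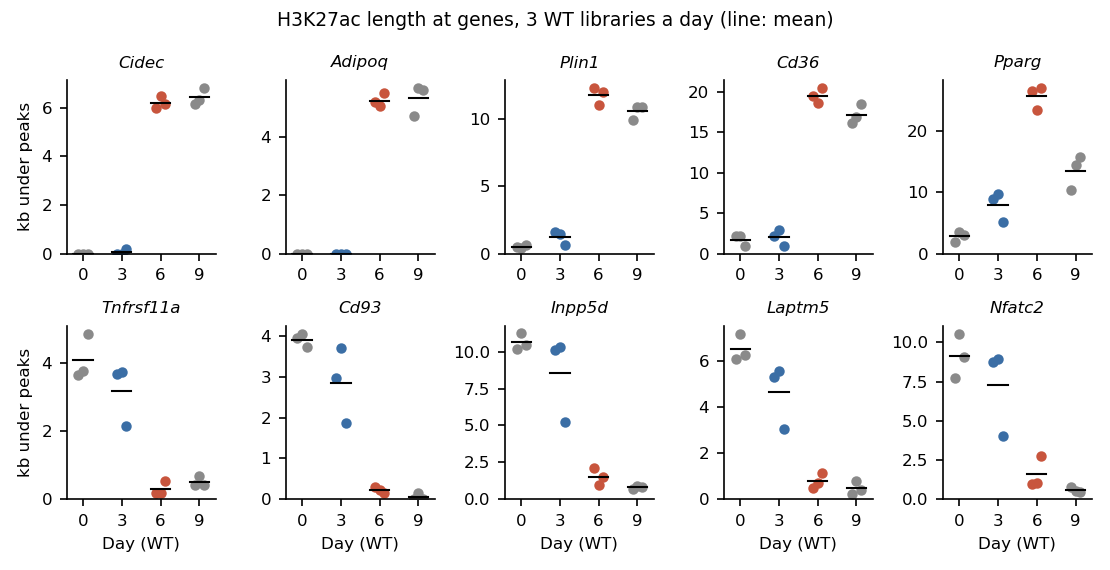
Length under H3K27ac peaks (kb) at 5 genes with more and 5 with less of the mark at day 6, in 3 WT libraries a day; points are libraries and lines the means. Cidec and Adipoq are at or near 0 kb at days 0 and 3 and between 4.73 and 6.79 kb at days 6 and 9, while Tnfrsf11a and Cd93 lie between 1.88 and 4.86 kb at days 0 and 3 and at most at 0.684 kb at days 6 and 9.

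The adipocyte markers as a list moved together. Of 9, 8 rose and none fell, where 10.6% of all genes rose and 1.02% fell. The median log2 difference was 1.69 against 0.24 over all genes. The same counts were found without the shallow library and with centring. Added together they covered 34.3, 38.2 and 22.2 kb in the day 3 libraries and 113, 110.4 and 117 kb in those of day 6, with no overlap. The WT day 9 libraries lay between, at 81.6 to 94.3 kb. Pparg went from 8.86, 9.71 and 5.08 kb to 26.6, 23.5 and 27.1 kb (1.69 ± 0.25, adjusted p = 0.00445) and had 10.3 to 15.8 kb at WT day 9, between the values of days 3 and 6. Cd36 went from 2.14, 2.94 and 0.953 kb to 19.5, 18.7 and 20.5 kb. Fabp4, a fatty acid binding protein, and the lipases Lpl and Lipe rose by log2 differences of 1.62, 1.24 and 1.11. Those of Fabp4 and Lipe were no longer past the threshold when any 1 day 6 library was left out (adjusted p 0.0516 to 0.0661 and 0.0511 to 0.0592 by limma). Cebpa was the exception, at 3.8, 3.81 and 3.06 kb at day 3 against 3.55, 3.52 and 3.94 kb at day 6 (0.04 ± 0.15, adjusted p = 0.855). It had 4 kept and 5 gained regions nearest to its start, of which those outside the window of the gene do not enter its length.

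The factors that control fat cell genes were read as a list of 24 tested genes, of which 13 rose and none fell. Of all genes tested, 10.6% rose and 1.02% fell. Mlxipl, the carbohydrate response factor ChREBP, had no peak at day 3 and 2.70, 2.85 and 2.84 kb at day 6. Ppargc1b (log2 difference 1.74) and its partner Esrrg (1.66) also rose, as did Srebf1, Ppara, Klf15, Nfib, Stat5a and Zfp423. Zbtb16, a target of the glucocorticoid receptor, had 46.5, 49.6 and 32.5 kb at day 3 against 75.8, 76.1 and 80.4 kb at day 6 (0.87 ± 0.23, adjusted p = 0.0414), a call that was lost without day 3 replicate 1 or without any 1 day 6 library (adjusted p 0.0798 to 0.19 by limma) and kept without the shallow library. At WT day 0 it had 0.847 to 1.34 kb, so most of its increase lay before day 3. Fkbp5, another glucocorticoid target, had 39.2, 42.8 and 27.6 kb at day 3 against 45.2, 46.4 and 50.6 kb at day 6 (adjusted p = 0.275). Ebf1, with the most gained regions, had 76.0, 84.4 and 50.8 kb at day 3 against 113, 116 and 123 kb at day 6, which did not pass (0.77 ± 0.24, adjusted p = 0.0799). It passed with centring (0.49, adjusted p = 0.0133) and without the shallow library (0.55, adjusted p = 0.000587).

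Most genes of the lipid lists rose. Of all genes tested, 10.6% rose and 1.02% fell, and the lists were chosen with earlier results known. Of 18 tested genes of lipid droplets and triglycerides, 16 rose (17 of 19 without the shallow library and with centring) and none fell. They include Agpat2, an acyltransferase of triglyceride synthesis (log2 difference 2.55), Plin5 (2.50), the lipases Pnpla2 and Mgll, and Dgat1 and Dgat2, the last step of triglyceride synthesis. Of 8 genes of fatty acid uptake, 6 rose, among them Acsl1, which activates fatty acids, from 2.52, 1.87 and 1.52 kb to 12.7, 12.3 and 13.2 kb, and Aqp7, the glycerol channel, from 0 kb in 3 libraries to 1.93, 1.5 and 2.43 kb. Of 13 lipogenesis genes, 7 rose, led by Thrsp (2.06) and by the carboxylases Acacb (1.74) and Acaca (1.58). Of 14 genes of fatty acid oxidation, 9 rose (7 with centring), among them Acadm (1.25) and Acadl (1.13). Of 10 genes of insulin and glucose handling, 8 rose, among them Pcx (1.80), Pde3b (1.68) and the insulin receptor Insr (1.35, not past the threshold without day 6 replicate 3, adjusted p = 0.0508). The median log2 differences of these 5 lists were 1.34, 1.64, 0.81, 0.67 and 1.11. Of 6 adipokine genes, Adipoq and Rbp4 rose, Apln fell (0.874, 1.124 and 0.720 kb to 0.192, 0.467 and 0.378 kb, adjusted p = 0.0476, a call lost when any 1 library other than day 3 replicate 3 was left out, adjusted p 0.0792 to 0.167), and Retn did not pass (adjusted p = 0.118).

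The thermogenic genes were split. Of 16, 10 could be tested and 6 rose, where 10.6% of all genes rose. With centring, 4 of these 10 rose and 1 fell. Without the shallow library and with centring, 5 of 11 rose and 1 fell, where 12.2% of all genes rose and 11.2% fell. Adrb3, the β3-adrenergic receptor, went from no peak in the 3 day 3 libraries to 3.93, 2.73 and 2.99 kb (2.88 ± 0.16, adjusted p = 8.05e-05 by limma). The potassium channel gene Kcnk3 went from no peak to 1.62, 0.815 and 0.904 kb. Both reached the minimum for testing through day 6 alone. Prdm16 went from 0.518, 0.739 and 0.716 kb to 3.21, 1.93 and 2.42 kb (1.37 ± 0.18, adjusted p = 0.00219). Ppargc1a went from 1.38, 1.43 and 1.06 kb to 1.95, 2.09 and 1.93 kb (0.48 ± 0.13, adjusted p = 0.0465), which did not pass with centring (adjusted p = 0.195) or without day 3 replicate 1 or any 1 day 6 library (0.0811 to 0.176). Cidea, a lipid droplet protein of brown fat, was below the minimum for testing, with 0, 0.165 and 0 kb at day 3 against 1.16, 0.783 and 0.677 kb at day 6. Ucp1, the uncoupling protein, had no peak in any of the 24 libraries, and Elovl3 had a peak in 1 of the 6 libraries, 0.558 kb in day 6 replicate 3.

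With the 6 libraries and no centring, genes of the preadipocyte state did not fall as a group. None of 15 tested preadipocyte and stromal genes, 18 matrix genes, 9 contractile and YAP target genes, 9 AP-1 and ATF genes or 16 cell cycle genes passed in either direction. Their median log2 differences were 0.25, 0.28, 0.10, 0.15 and 0.14, near the 0.24 of all genes. Col3a1 had 28.9, 29.6 and 18.3 kb at day 3 against 29.9, 27.3 and 27.6 kb at day 6, and Mmp3 3.17, 2.9 and 1.72 kb and 4.22, 3.96 and 4.47 kb (adjusted p = 0.0795). Col1a2 had 11.2, 13.1 and 5.63 kb at day 3 against 8.55, 10.035 and 9.14 kb at day 6, while at WT day 0 it had 23.5 to 26.4 kb, so it was already lower at day 3. The calls changed with the libraries: without the shallow library and with centring, where 12.2% of all genes rose and 11.2% fell, 2 of 18 matrix genes rose and 5 fell, 1 of 15 preadipocyte genes rose and 2 fell, and 2 of 9 contractile and 2 of 16 cell cycle genes fell. The counts of the preadipocyte and cell cycle lists are near the shares of all genes. In direction, 7 of 15 preadipocyte, 8 of 18 matrix, 1 of 9 contractile, 1 of 9 AP-1 and 4 of 16 cell cycle genes lay above 0 in that fit. Of all genes, 5542 of 12548 did. The list medians were -0.09, -0.04, -0.16, -0.15 and -0.09, against -0.04 over all genes, so the contractile and AP-1 lists leaned downward there. Col1a2 then had a log2 difference of -0.52 (adjusted p = 0.00351). In that fit the cyclin gene Ccnd1, at 2.93, 2.97 and 1.74 kb at day 3 against 0.758, 1.36 and 1.59 kb at day 6, fell as well (-1.17, adjusted p = 0.00221), and with the 6 libraries and no centring it did not pass (-0.82, adjusted p = 0.0602). Fosl2, an AP-1 subunit, had 19.3, 19.6 and 15.98 kb at day 3 against 14.9, 15.5 and 16.3 kb at day 6 (adjusted p = 0.429, and 0.00031 in that fit). Of 17 glucocorticoid and cAMP responsive genes, Zbtb16 alone passed, and of 15 TGF-β, BMP and Wnt genes, Tgfb2 and Gata3 rose (Gata3 not without any 1 day 6 library, adjusted p 0.0831 to 0.0968). The genes Galnt9, Pnp2 and Slc6a6, which the study names among white adipocyte genes, did not pass (log2 differences of -0.00 to 0.22), though Galnt9 (-0.26) and Slc6a6 (-0.33) fell without the shallow library and with centring. Hmgn1 (0.04) and Hmgn2 (0.09) did not pass.

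**Figure D4:**
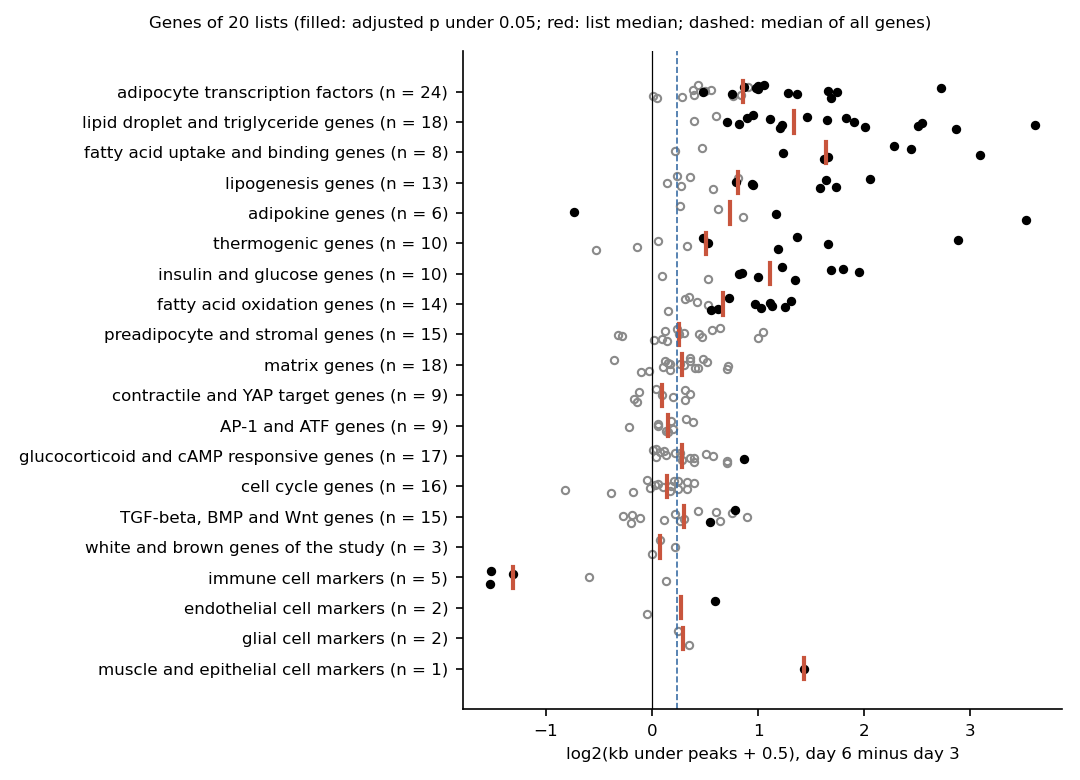
Log2 difference of kb under peaks (kb + 0.5, day 6 minus day 3) for the tested genes of 20 lists; filled points passed at an adjusted p under 0.05, red bars are list medians and the dashed line is the median of all genes (0.24). Lists of lipid and adipocyte genes lie to the right of that line, and immune cell markers have the only list median below 0 (-1.31).

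Several of the genes that fell are known from macrophages and other blood cells. The 10 with the largest decreases were Tnfrsf11a, Tm6sf1, Cd93, Inpp5d, Prune2, Clec4d, Pik3r5, Laptm5, Pik3cg and Susd3, with log2 differences of -2.20 to -1.95. Tnfrsf11a, which encodes RANK, the receptor of osteoclast precursors, had 3.66, 3.74 and 2.15 kb at day 3 against 0.180, 0.185 and 0.526 kb at day 6 (-2.20 ± 0.23, adjusted p = 0.00097). Cd93, a receptor of myeloid and endothelial cells, had 2.97, 3.71 and 1.88 kb and then 0.306, 0.220 and 0.160 kb (-2.17 ± 0.21, adjusted p = 0.000759). Inpp5d, the lipid phosphatase SHIP1, Pik3r5 and Pik3cg, subunits of the PI3 kinase γ, Laptm5, a lysosomal protein of blood cells, and Clec4d, a C-type lectin, are best known from blood cells. In each of the 10 genes the shallow library had the lowest day 3 value. The 10 were taken from the called genes whose libraries did not overlap between days. That it lay above every day 6 library is therefore set by the choice. Without that library and with centring the log2 differences were -2.65 to -2.40. The call of Pik3r5 was lost in most settings that left out 1 library (adjusted p 0.0702 to 0.0875 in 4 of 6, limma).

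Markers of immune cells moved with these genes. Of 8 markers, 5 were tested, and Ptprc, the leukocyte antigen CD45, fell by 1.52, Itgam by 1.52 and Lyz2 by 1.31 on the log2 scale. Of all genes tested, 1.02% fell. Ptprc had 1.36, 1.86 and 0.771 kb at day 3 against 0.168, 0.201 and 0 kb at day 6. Csf1r, the macrophage growth factor receptor, had 8.18, 7.58 and 5.41 kb and then 4.5, 4.48 and 4.35 kb, which did not pass (adjusted p = 0.0765). It passed with centring (-0.87, adjusted p = 0.000293) and without the shallow library (-0.76, adjusted p = 0.000457). Itgam and Lyz2 lost their calls without day 3 replicate 1, and in 3 further leave-one-out settings for Lyz2 and 2 for Itgam (adjusted p 0.0521 to 0.101). Cd68, whose window overlaps Eif4a1 and Mpdu1, did not pass, Adgre1 was below the minimum, and the T cell marker Cd3e had no peak in the 6 libraries. The summed length of the 8 markers was 26.4 to 29.7 kb at WT day 0, 21.99, 22.9 and 13.0 kb at day 3, 9.98 to 11.5 kb at day 6 and 6.50 to 8.95 kb at WT day 9. In DKO cells it was 19.3 to 28.3 kb at day 3 against 5.55 to 13.4 kb at day 6. Whether the cultures held fewer blood cells or these cells less of the mark cannot be told apart in bulk samples, and the part of such cells in the lost regions was not tested. The summed length of 7 endothelial markers was 4.64, 4.77 and 1.99 kb at day 3 against 4.21, 4.02 and 4.27 kb at day 6, and Kdr, Tie1 and Cldn5 had no peak. Tek rose (0.59, adjusted p = 0.0223), a call lost without day 3 replicate 1 or any 1 day 6 library (0.0551 to 0.121). Glial markers gave no call, and Myh11, a smooth muscle gene, was the 1 member of the muscle and epithelial list that could be tested and rose (1.43, adjusted p = 0.00758).

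More of the lost regions had a match to a macrophage motif around the summit. After macrophage genes were seen among those that fell, a motif of PU.1 (GAGGAAGT, both strands), an ETS factor of macrophages and B cells, was searched. It was found within 500 bp of the summit in 16.5% of lost, 6.49% of gained, 7.58% of kept and 7.63% of all merged regions. Among lost regions it was found in 19.9% of the 694 called in 3 of 3 WT day 0 libraries and in 7.37% of the 217 called in none. Without the shallow library, 13.1% of 4439 lost regions had it in this window. Within 100 bp of the summit the share was 1.39% in lost and 1.43% in all regions, so the difference was seen in the wider window only. These shares are a description with no test, and a match is not a shown site. The window of 500 bp can reach outside a region, and the Nfatc2 match below lay in the windows of 2 lost regions. The match with 16 bases on either side is given for 6 of the matches in these windows. Their lost regions were nearest to genes that fell or had 5 or more lost regions. Each is on the strand of the motif, which is in capitals.
Nfatc2 (chr2:168583237-168583276, plus strand): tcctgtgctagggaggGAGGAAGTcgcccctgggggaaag
Fli1 (chr9:32472555-32472594, plus strand): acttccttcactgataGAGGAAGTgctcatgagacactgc
Fli1 (chr9:32507602-32507641, plus strand): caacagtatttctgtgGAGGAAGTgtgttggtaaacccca
Arhgap25 (chr6:87496315-87496354, plus strand): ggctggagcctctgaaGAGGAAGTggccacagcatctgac
Tm6sf1 (chr7:81860246-81860285, plus strand): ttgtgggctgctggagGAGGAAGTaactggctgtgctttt
Tnfrsf11a (chr1:105790631-105790670, plus strand): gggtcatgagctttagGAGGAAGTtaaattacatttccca

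Other motifs differed less. In the 20000 strongest peaks of each library, a C/EBP match (TTGCNNAA) within 100 bp of the summit was found in 5.70% ± 0.0679 of peaks at day 3 and 5.97% ± 0.160 at day 6 (SD, n = 3), an AP-1 match (TGANTCA) in 3.27% ± 0.0375 and 3.46% ± 0.0810, and an EBF match (TCCCNNGGG) in 5.55% ± 0.135 and 5.15% ± 0.0900. For these 3 of 10 motifs the days did not overlap, with a two-sided exact permutation p of 0.1 (0.333 after adjustment over 10 motifs). The other 7 had exact permutation p values of 0.2 or more. The DR1 motif of PPARγ and RXR, in the strict form of 2 AGGNCA copies with 1 base between, was found within 100 bp in 0.571% of the gained regions and 0.401% of all, that is in 36 and 566 regions. C/EBP was found within 100 bp in 6.98% of the gained and 7.44% of all regions. Within 500 bp it was found in 43.9% of the gained and 39.9% of all regions, and in 46.1% of the 4504 gained regions with no call at WT day 0. Among regions with the summit more than 1 kb from a transcript start, gained and kept regions were alike. There it was found in 45.3% of gained, 45.4% of kept, 42.6% of lost and 42.3% of all regions.

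Kept regions changed in strength in both directions. Their fold enrichment, centred on the median of each library, rose in 2401 of 36752 regions (6.53%) and fell in 1887 (5.13%) at an adjusted p under 0.05. Regions that rose were more often at promoters, with 62.3% within 1 kb of a transcript start against 46.7% of all kept regions and 41.1% of those that fell. The ERR motif (TCAAGGTCA) lay within 500 bp in 3.42% of those that rose, 2.05% of all kept and 1.48% of those that fell. The AP-1 motif did in 26.3%, 31.1% and 34.98%, and the PU.1 motif in 6.08%, 7.58% and 9.75%. In kept regions with the summit more than 1 kb from a transcript start the shares were 2.34% (ERR), 42.6% (AP-1) and 8.13% (PU.1). The sets that rose and fell were not matched for their share at promoters. The motif shares were not tested.

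The largest increase was in an intron of 4931414P19Rik (chr14:54603570-54604090), with folds of 2.41, 2.61 and 3.39 at day 3 and 10.5, 12.3 and 16.2 at day 6 (centred log2 difference 2.08 ± 0.24, adjusted p = 2.39e-05 by limma). Other regions with large increases lay 13.7 kb from Pnp2 (chr14:50969117-50970556, 1.71), at a start of Rhot1, a mitochondrial transport GTPase (chr11:80209096-80210800, 1.69), and in Dhcr7, an enzyme of cholesterol synthesis (chr7:143825081-143827141, 1.67). The region nearest to Pnp2 rose while the length over Pnp2 itself did not change past the threshold. The largest decreases were 45.5 kb from Atp6v1c1 (chr15:38707068-38707615), with folds of 12.2, 12.6 and 15.2 and then 3.92, 4.55 and 5.12 (-1.68 ± 0.22, adjusted p = 6.30e-05), 2.31 kb from Trpv4 (chr5:114660447-114661162, -1.58), 12.5 kb from the metallothionein gene Mt1 (chr8:94191327-94192010, -1.53), at a transcript start in Arf2 (chr11:103979073-103980935, -1.51) and 9.13 kb from Rac2, a GTPase of blood cells (chr15:78581763-78582140, -1.46). The Atp6v1c1 region was called in 0 of 3 WT day 0 libraries. In none of these regions did the days overlap, and each passed under all 10 alternatives.

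Of the genes on the lists, 147 had a kept region at their promoter, of which 23 rose (15.6%) and 9 fell (6.12%), against 6.53% and 5.13% of all kept regions. The sets are unlike, as 46.7% of all kept regions lay within 1 kb of a transcript start. That share was 62.3% among those that rose and 41.1% among those that fell. Those at G0s2, an inhibitor of triglyceride lipolysis (1.5), Cpt2 (1.45), Pde3b (1.42), Acadvl (1.23), Acsl1 (1.2), Insr (1.19) and Pparg (0.92) rose. Those at Ucp2 (-1.05), Col1a1 (-1.0), Mki67 (-0.92), Mmp3 (-0.75), Jund (-0.65) and Pdgfra (-0.64) fell. Of 11 preadipocyte and stromal genes with a kept promoter, Pdgfra and Mmp3 were the 2 that changed, and of 13 matrix genes, Col1a1 was the 1 that did. Of 12 genes of the glucocorticoid and cAMP list, Per1 (1.08) and Dusp1 (0.74) rose and Crem (-0.64) fell, and of 15 cell cycle genes, Mcm7 (0.60) rose while Mcm5 (-0.75) fell as Mki67 did.

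**Figure D5:**
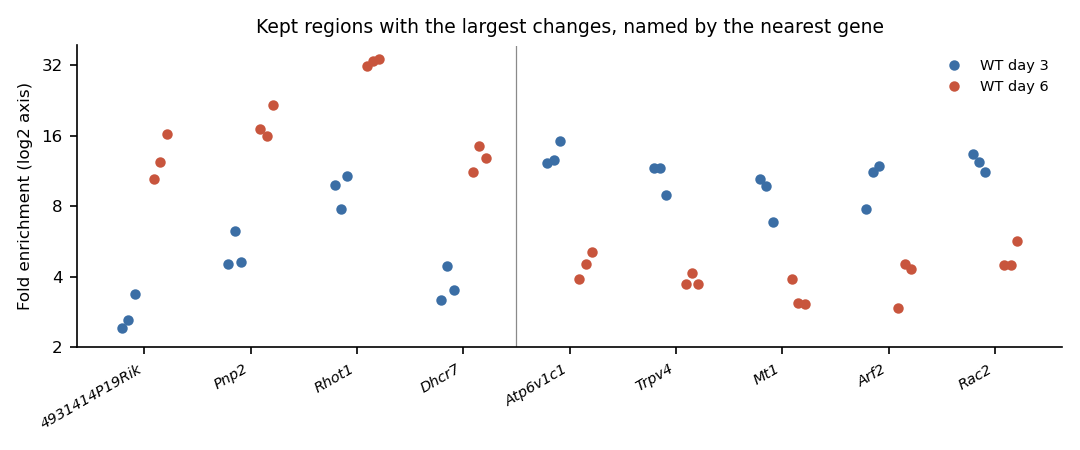
Fold enrichment (log2 axis) at kept regions among those with the largest increases and decreases, named by the nearest gene, in 3 libraries of WT day 3 and 3 of WT day 6; each point is a library. The days do not overlap at any region shown; at 4931414P19Rik day 3 lies between 2.41 and 3.39 and day 6 between 10.5 and 16.2.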

How the data were processed

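H3K27ac ChIP-seq was measured in WT and DKO cells at days 0, 3, 6 and 9, and 24 peak lists were read. The authors called peaks per library with MACS2 2.1.1.20160309 on mm10 after cutadapt 1.18 and BWA, per the submitters' processing notes; the input behind each list is not given in the sources used here. The deposited values per peak are a fold enrichment (a ratio over the local background), a −log10 p and a −log10 q, all peaks having a −log10 q of at least 2.00. The reads of the background were recovered from the deposited fold and −log10 p values, and total depth is unknown.

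Peaks were merged at 1 bp of overlap, and genes (21911 protein-coding, GENCODE vM21) were measured from 5 kb upstream to their end. Genes with a mean of 0.5 kb or more were tested with limma 3.58.1 (trend, robust) on log2(kb + 0.5), and kept regions on log2 fold centred on the median of each library. Values per library were tested with an exact permutation test of 20 relabellings, and the Jaccard index over 10 ways to part the libraries. Benjamini-Hochberg adjustment was made over the genes, over the kept regions and over the 10 motifs. The other exact permutation p values are not adjusted. R 4.3.3, Python 3.11.15, numpy 2.4.6, pandas 2.3.3 and scipy 1.17.1 were used. On simulated data with 100 genes changed at each size, 53% were recovered at a log2 difference of 1 and 91% at 2, with 8 false calls over 12416 genes. For 36752 kept regions these were 33%, 86% and 2. The simulated noise was independent between genes, with no shift shared by a library, so these numbers do not cover errors from the shallow library. Motifs were searched on both strands, and sequences were taken from RefSeq GRCm38.

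The members and gene lists were chosen with earlier results of these data known. Named genes were the 10 with the largest changes in each direction among those past the threshold whose days do not overlap, the 5 with most gained and the 5 with most lost regions, up to 4 of each list with the largest differences, and 20 marker genes; other genes named as list members, or among the kept promoters, were chosen after their values were seen, as was the PU.1 motif. Regions named were the 5 strongest or most changed of each class. Alternatives were stricter peaks, equal peak numbers, windows around summits, other pseudocounts and filters, centring, a replicate block and leaving out each library. Input libraries were not analysed here. Some items that the rules select are not reported here.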

Additional observations from a re-analysis of the deposited data

How the results depend on the processing

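Day 3 replicate 3 was the limit, with less than the other libraries in reads and peaks, and exact tests of 3 against 3 libraries cannot go below 0.1. Leaving out 1 library gave 6641 to 10364 gained and 1504 to 4439 lost regions, 482 to 2265 higher and 56 to 671 lower genes (1405 without day 3 replicate 3 and with centring), and 1347 to 2172 higher and 1029 to 1471 lower kept regions (1626 with quantile normalization and without day 3 replicate 3). With 20000 peaks a library there were 780 gained and 377 lost regions, 415 higher and 54 lower genes, and the promoter share differed by +1.26 points where all peaks gave -4.02 (-5.43 to -1.73 leaving out 1 library, exact permutation p of 0.1 or more). Regions in at least 2 of 3 libraries were 15143 gained and 5339 lost. A −log10 q of at least 5 gave 81 lower genes, 250 bp around summits 401 higher and 67 lower, centring 843 lower, and log2 of the −log10 q 1443 higher and 1056 lower kept regions. The cause was not tested.

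Motif shares that changed sign (day 6 minus day 3, points) were, with all peaks, DR1 0.0242, glucocorticoid receptor 0.304, TEAD 0.0294 and ERR 0.0177, and within 50 bp glucocorticoid receptor 0.00667, CRE 0.00167 and ERR 0.005. Leaving out 1 library gave DR1 -0.0258 to 0.0025, glucocorticoid receptor -0.111 to 0.0617, CRE -0.0217 to 0.000833 and TEAD -0.0783 to 0.0575.

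With centring, list counts were 1 lower in the thermogenic, contractile, AP-1 and preadipocyte lists, 1 higher preadipocyte and 2 lower matrix and cell cycle genes. They were also 4 higher thermogenic, 7 higher fatty acid oxidation, 3 higher glucocorticoid, 4 lower TGF-β, and 0 higher endothelial genes. Without day 3 replicate 3, with and without centring, they were 1 lower thermogenic, 0 to 1 lower insulin, 1 to 3 higher and 1 to 2 lower preadipocyte, 2 to 5 higher and 3 to 5 lower matrix, 1 to 2 lower contractile, 1 lower AP-1, 4 to 5 higher and 0 to 2 lower glucocorticoid, 2 lower cell cycle, 4 to 5 higher and 3 to 5 lower TGF-β, 0 to 2 lower white and brown, 5 lower immune and 1 lower endothelial genes.

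Log2 differences that changed sign were, with centring, Hmgn1 -0.241, Hmgn2 -0.187, Cebpa -0.235, Col3a1 -0.109, Cd68 -0.150 and Pnp2 -0.0602, around summits Hmgn1 -0.297, Cebpa -0.214, Ppargc1a -5.49e-17, Galnt9 0.271, Fosl2 0.0125 and Cd68 -0.0498, with stricter peaks Hmgn1 -0.0291, Col1a2 0.0604 and Pecam1 0.0434, and with 20000 peaks Cd68 -0.568 and Pnp2 -0.142. Leaving out 1 library gave Hmgn1 -0.0583 to 0.174, Hmgn2 0.0368 to 0.138, Cebpa -0.0468 to 0.0906, Col1a2 -0.371 to 0.201, Col3a1 -0.0496 to 0.289, Galnt9 -0.114 to 0.0741, Cd68 -0.0484 to 0.231, Pecam1 -0.484 to 0.182 and Pnp2 0.0686 to 0.392, and without day 3 replicate 3 and with centring the values were Hmgn1 -0.204, Hmgn2 -0.0512, Cebpa -0.193, Col3a1 -0.196, Cd68 -0.194 and Pnp2 -0.0774.

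The replicate block gave 1215 higher and 139 lower genes and 2684 higher and 2163 lower kept regions by limma; peaks per library still differed by 16733 with an exact permutation p of 0.25, the smallest that 8 sign flips allow. It lost the calls of Pik3r5, Ppargc1a, Zbtb16, Arhgap25, Apln and Lyz2. Across genes, the deviations of same-numbered libraries from the mean of their day had r = -0.0355, -0.0860 and -0.128. With 3 libraries a day, 1 of them shallow, these values cannot tell whether the numbers pair the libraries. The 10 named kept regions kept their calls in 100 of 100 values.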
